A study of Mus musculus with 4 samples.

Results

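Endothelial identity genes were examined in mouse liver tumors before and after p53 was switched back on. The set holds 38 genes, chosen by name with earlier results of these data known. It covers general endothelial genes, genes of fenestrated, sinusoidal and lymphatic endothelium, the angiopoietin pathway, and apelin and tip cell genes. All probe sets annotated to exactly 1 of these symbols were taken, which gave 65 probe sets of 37 genes, out of 45037 probe sets and 18193 genes on the array. Tspan7 had no such probe set. Each gene is given at its probe set with the highest mean, and the other probe sets are described separately.

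The tumors had been grown by placing liver progenitor cells (LPCs) into the livers of recipient mice, of no stated strain or age. All 4 tumor samples shared oncogenic RAS as the driver and a tet-off hairpin against p53 (shp53), a short hairpin RNA that is produced until doxycycline is supplied. In the p53 off group (2 samples, 0 days of doxycycline in the chow) the hairpin was active, and in the p53 on group (2 samples, 8 days) it had been shut off. No doxycycline-treated tumor without the hairpin was analysed here, so restored p53, doxycycline and the 8 days themselves cannot be told apart. The hairpin belonged to the transplanted cells, whereas vessels of a transplanted tumor generally come from the host.

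Endothelial cells line blood and lymph vessels. They are held together by VE-cadherin, claudin-5 and related adhesion proteins, and their identity is set largely by ETS and SOXF transcription factors. Angiopoietins regulate vessel stability: ANGPT1, made mainly by mural and stromal cells, activates the receptor TIE2 (encoded by Tek), and ANGPT2, stored in endothelial cells, usually opposes it. Liver sinusoids carry a specialised endothelium with open fenestrae and scavenger receptors such as the stabilins, which is often replaced in liver tumors by capillaries that express general endothelial markers.

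Most of these endothelial genes were higher in p53 on, with Plvap, a gene of fenestrated capillaries, 3.81-fold higher. Esm1, a gene of tip cells and of some tumor cells, was 5.01-fold lower. Of the 5 sinusoidal genes in the set 1 rose, 1 fell and 3 were not called. Whether the sinusoidal genes differed as a group from the general endothelial genes was not tested. Of the 37 measured genes, 25 rose and 2 fell at a limma adjusted p under 0.05. Over all 18193 genes 14% were called higher and 14.7% lower. Because the set was chosen with earlier results known, setting its counts beside the shares of all genes is no independent test. The median log2 change of the 37 genes was 0.659, against 0.0228 for all genes. In 29 of the 37 genes both p53 on arrays lay above both p53 off arrays and in 4 both lay below, against 36.3% and 30.4% of all genes (66.7% either way). A rise of at least 2-fold was called for 9 of the 37 genes and a fall of that size for 1, against 2.73% and 2.55% of all genes. Without p53 off replicate 2 the fit called 14 of the 37 genes higher and 2 lower, and 2228 genes in place of 5223 over the whole array.

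Array facts bear on each of these values. The RMA values, which are on the log2 scale, had array medians from 7.29 to 7.39. Replicates correlated across genes with r = 0.9969 in p53 off and 0.9931 in p53 on, genes not being independent replicates. Of all called genes 48.8% were higher. That share became 37.9% when every array was set to the same median, and 70.03% when the spike-in controls set the scale. The spike-in scale raised the median change of all genes by 0.131. RNA quality was read from the beta-actin controls, whose 3' value exceeded the 5' value by 0.262 to 0.395 in p53 off but by 0.478 to 0.492 in p53 on; its part in the results was not tested. The labels do not say whether replicates were separate animals, so each p-value reflects no more than the spread among these arrays, which may be technical. As a check of tissue, 8 of 11 measured hepatocyte markers, Alb among them, lay in the lowest 40% of gene means. Ttr, Hnf4a and Cyp2e1 lay above that cut. Cyp2e1 read 9.71 on the first p53 on array but 7.39 on the second, and no higher than 7.27 without doxycycline. The log2 of the summed linear values of all 11 was 11.45 on that first array and 11.01 on the second. The second was the higher for 5 of the 11, with a median difference of -0.039 (second minus first). Whether hepatocyte content differed between these arrays was not tested. In bulk tumor RNA, fewer cells of a type and less RNA per cell cannot be told apart.

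**Figure D1:**
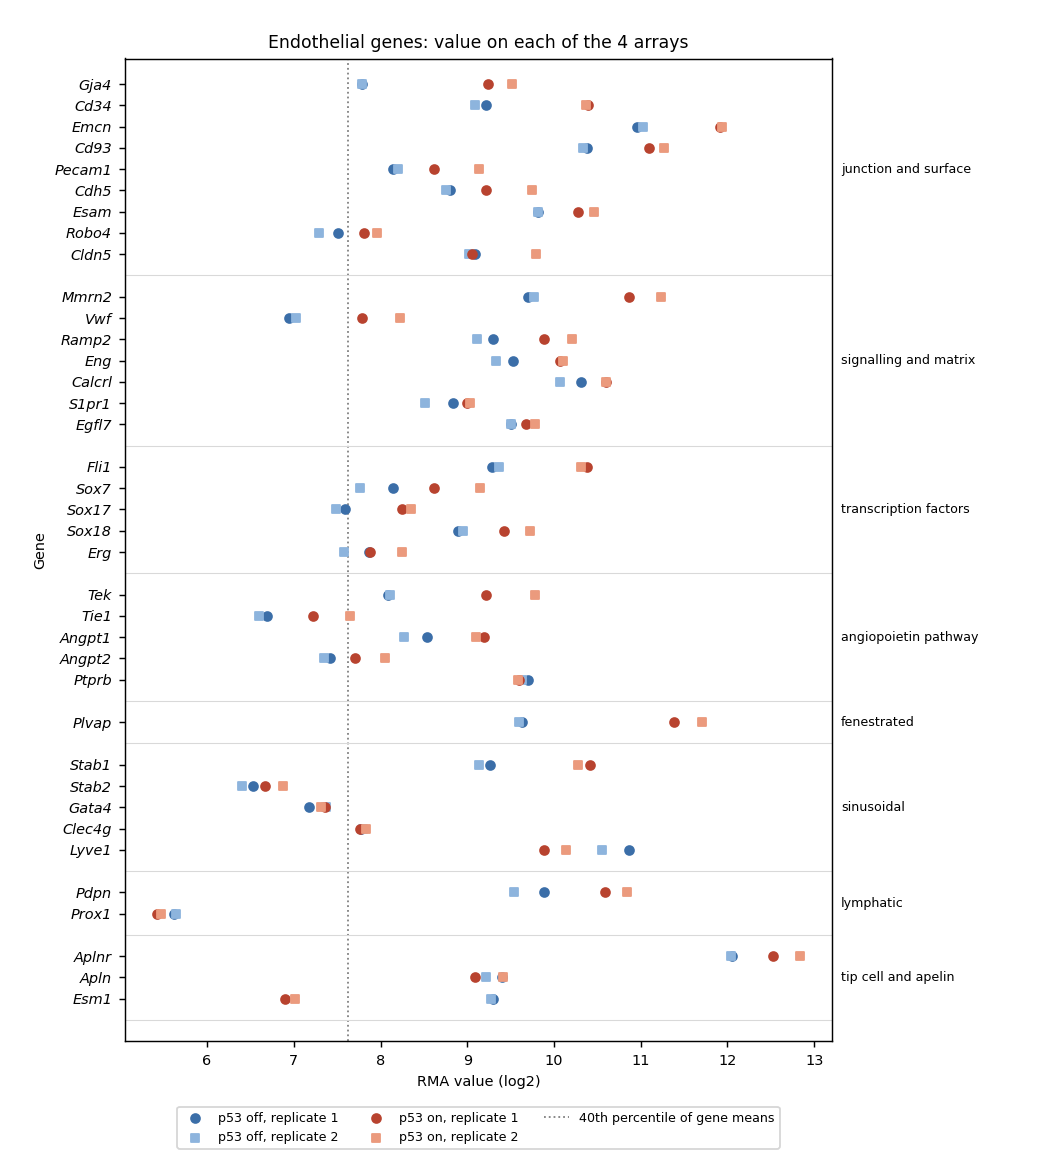
RMA values (log2, horizontal axis) of the 37 measured endothelial genes on each of the 4 arrays, grouped by role; circles are replicate 1, squares replicate 2, blue p53 off and red p53 on. The p53 on symbols lie to the right of the p53 off symbols for most genes, and to the left for Esm1, Lyve1, Prox1 and Ptprb. The dotted line marks the value below which the lowest 40% of gene means lie.

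Of 9 measured junction and surface genes, 8 rose and none fell. Gja4, which encodes the gap junction protein connexin 37 of arterial endothelium, stood at 7.79 and 7.79 in p53 off and at 9.24 and 9.52 in p53 on. Its rise, 1.59 ± 0.11 in log2 units (3.01-fold; limma adjusted p = 0.000814), was the largest among them; here and below ± is the standard error with 2 arrays a group. Cd34, a sialomucin of endothelial and progenitor cells that some stromal cells also carry, was at 9.21 and 9.09 against 10.39 and 10.37. It rose by 1.23 ± 0.079 (2.34-fold), and in both genes the groups lay far apart compared with the spread inside either. Emcn, a mucin-like protein of capillaries and veins, went from 10.96 and 11.03 to 11.91 and 11.93, a rise of 0.93 ± 0.074. Cd93, a C-type lectin-like receptor shared with myeloid cells, was at 10.38 and 10.33 in p53 off and at 11.09 and 11.26 in p53 on, a rise of 0.82 ± 0.089. Of the 9 genes, 4 were called without p53 off replicate 2.

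Cdh5 and Pecam1, the usual defining genes of endothelium, also rose, but their p53 on arrays differed from each other. Cdh5, which encodes VE-cadherin, was at 8.80 and 8.75 in p53 off and at 9.22 and 9.75 in p53 on, 0.71 ± 0.18 higher (1.63-fold; limma adjusted p = 0.0334). Pecam1, which encodes CD31 and is also found on platelets and leukocytes, was at 8.14 and 8.20 against 8.62 and 9.13 and rose by 0.71 ± 0.17. In both genes the second p53 on array was about as far above the first as the first was above p53 off. Esam, an immunoglobulin-family junction protein, went from 9.82 and 9.82 to 10.28 and 10.46 and rose by 0.55 ± 0.09. Robo4, an endothelial roundabout receptor, went from 7.51 and 7.29 to 7.81 and 7.95 and rose by 0.48 ± 0.11, and neither gene had overlapping groups. Cldn5, the tight junction claudin of endothelium, had overlapping groups, with 9.09 and 9.02 in p53 off against 9.05 and 9.79. Its change of 0.37 was not called (95% interval -0.22 to 0.95, limma adjusted p = 0.306). Intervals here and below treat each gene alone and are not adjusted for the number of genes, whereas calls are. A gene can therefore be uncalled although its interval lies wholly above or below no change. Without p53 on replicate 2 the change was 0.45 for Pecam1, 0.44 for Cdh5 and -0.000955 for Cldn5, and without p53 on replicate 1 Cldn5 was called at 0.73 (limma adjusted p = 0.00356, range over all settings 0.00356 to 0.996). Without p53 off replicate 1, and then without replicate 2, the limma adjusted p was 0.124 and 0.128 for Pecam1 (range 0.00139 to 0.128), 0.113 and 0.156 for Cdh5 (range 0.00134 to 0.156), and 0.0537 and 0.0661 for Esam (range 0.00411 to 0.0661). For Robo4 it was 0.127 without p53 off replicate 2 and 0.0516 without p53 on replicate 2 (range 0.0104 to 0.127).

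Of 7 genes for endothelial signalling and matrix proteins, 5 rose and none fell. Mmrn2, an endothelial matrix glycoprotein that binds CD93, was at 9.71 and 9.77 in p53 off and at 10.86 and 11.23 in p53 on, a rise of 1.31 ± 0.13 (2.48-fold; limma adjusted p = 0.00215). Vwf, the clotting protein stored in endothelial cells and platelets, was at 6.95 and 7.02 against 7.78 and 8.22, a rise of 1.02 ± 0.15. The groups of Vwf did not overlap, and its mean lay in the lowest 40% of gene means. Eng, which encodes endoglin, a coreceptor of the TGF-beta family, rose from 9.53 and 9.33 to 10.07 and 10.11 (0.66 ± 0.095). The adrenomedullin receptor is formed by the products of Calcrl and Ramp2. Ramp2 rose from 9.30 and 9.12 to 9.88 and 10.20 (0.83 ± 0.13), and Calcrl from 10.31 and 10.07 to 10.60 and 10.60 (0.41 ± 0.10). Neither gene had overlapping groups. S1pr1, a receptor for sphingosine-1-phosphate, was at 8.84 and 8.51 against 8.99 and 9.03 and was not called (0.33, 95% interval 0.03 to 0.64). Egfl7, a secreted vascular protein, was at 9.51 and 9.51 against 9.67 and 9.78 and was not called either (0.22, 95% interval 0.03 to 0.42). The call of Ramp2 was lost without p53 off replicate 2 (limma adjusted p = 0.0609, range 0.00205 to 0.0609), where 3 of the 7 genes were called higher, and that of Calcrl without p53 off replicate 2 (0.169), p53 on replicate 1 (0.0634) or p53 on replicate 2 (0.0627; range 0.0142 to 0.542). At its probe set without an a, s or x suffix, Calcrl was dim, with means of 5.61 in p53 off and 5.71 in p53 on. The Calcrl change there was 0.10 (limma adjusted p = 0.542). S1pr1 was called without p53 off replicate 1 (0.50; limma adjusted p = 0.0421, range 0.0379 to 0.391), and its change was 0.17 without p53 off replicate 2.

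Among the transcription factors of endothelial identity, 4 of 5 rose. All 3 SOXF factors, which act in vascular and arterial development, were higher: Sox17 went from 7.59 and 7.49 to 8.25 and 8.35 (0.76 ± 0.082), Sox18 from 8.89 and 8.95 to 9.43 and 9.73 (0.66 ± 0.12), and Sox7 from 8.14 and 7.77 to 8.62 and 9.15 (0.93 ± 0.21). The ETS factor Fli1, expressed in endothelial and blood cells, rose from 9.29 and 9.37 to 10.38 and 10.31, by 1.01 ± 0.077 (2.02-fold; limma adjusted p = 0.00102). The related ETS factor Erg, which in the adult is more confined to endothelium, was at 7.87 and 7.58 against 7.88 and 8.25. Its change of 0.34 was not called (95% interval -0.06 to 0.74; limma adjusted p = 0.175); whether it differed from that of Fli1 was not tested. The lower p53 on value of Erg lay next to the higher p53 off value. Another Erg probe set, at 7.76 and 7.79 in p53 off against 7.71 and 7.71, changed by -0.06 and was not called. With the mean of its probe sets the Erg change was 0.14. The limma call of Sox7 was lost without p53 off replicate 2 (adjusted p = 0.135, range 0.00362 to 0.135), where 2 of the 5 factors were called, and that of Sox18 without p53 off replicate 1 (0.0658) or 2 (0.0671; range 0.00241 to 0.0671). Erg was called without p53 on replicate 1 (0.53; limma adjusted p = 0.0377, range 0.0377 to 0.588), and its change was 0.16 without p53 on replicate 2 and 0.20 without p53 off replicate 2.

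In the angiopoietin pathway both receptors and both ligands rose, 4 of 5 genes in all. Tek was at 8.09 and 8.11 in p53 off and at 9.21 and 9.78 in p53 on, a rise of 1.40 ± 0.19 (2.64-fold; limma adjusted p = 0.0048). Tie1, the orphan receptor that modulates TIE2 signalling, was at 6.69 and 6.60 against 7.22 and 7.65 (0.79 ± 0.15), and lay in the lowest 40% of gene means. The receptors had no overlap between groups, and the second p53 on array was the higher in each. The agonist gene Angpt1 went from 8.53 and 8.27 to 9.19 and 9.10, a rise of 0.74 ± 0.11 (1.67-fold). Angpt2 went from 7.41 and 7.34 to 7.71 and 8.05, a rise of 0.50 ± 0.13 (1.41-fold; limma adjusted p = 0.0369). The changes of the ligands were thus 0.74 for Angpt1 and 0.50 for Angpt2, and the difference between them was not tested. Ptprb encodes VE-PTP, the phosphatase that dampens TIE2 and VE-cadherin phosphorylation. At its brightest probe set Ptprb was at 9.70 and 9.63 against 9.60 and 9.59, a change of -0.07 that was not called (95% interval -0.26 to 0.11), but another probe set was called lower (-0.48 ± 0.073; adjusted p = 0.00897 in the limma fit over all probe sets). The Angpt2 call was lost in each of these cases: without p53 off replicate 1 (limma adjusted p = 0.113), p53 off replicate 2 (0.181) or p53 on replicate 2 (0.0558; change 0.33), and with quantile normalization (0.051; range over all settings 0.00469 to 0.181). The call of Tie1 was lost without p53 off replicate 1 (0.0584) or 2 (0.0916; range 0.00132 to 0.0916). Without p53 off replicate 1, and likewise without p53 off replicate 2, Angpt1 and Tek were the 2 of 5 pathway genes called higher.

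**Figure D2:**
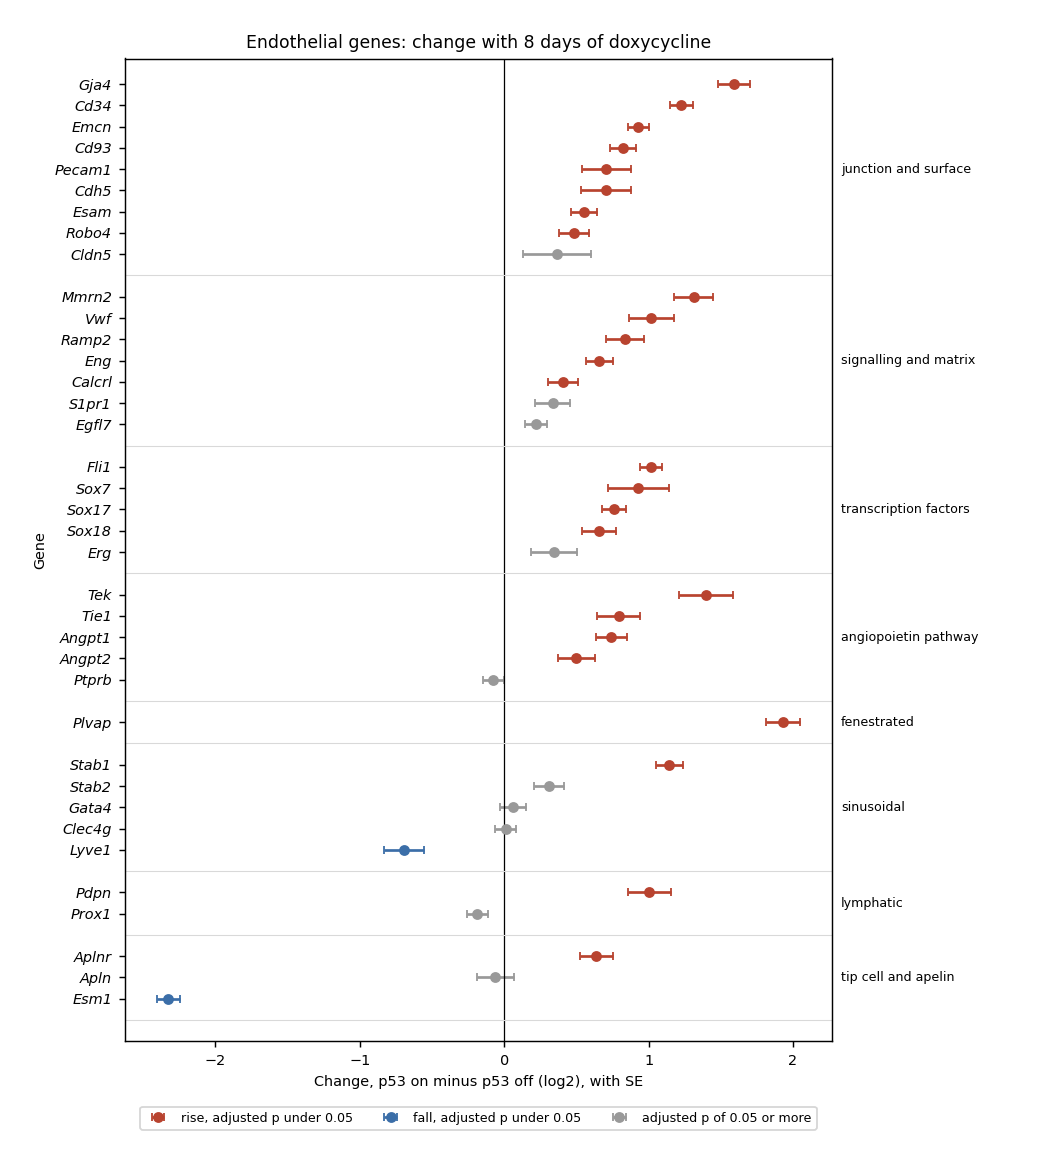
Log2 change (p53 on minus p53 off, horizontal axis) of each measured endothelial gene with its standard error, grouped by role; red marks a rise and blue a fall at a limma adjusted p under 0.05, grey neither. Most genes of the first 4 role groups are red, with Cldn5, S1pr1, Egfl7, Erg and Ptprb grey, and Plvap has the largest rise at 1.93 and Esm1 the largest fall at -2.33.

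Plvap, which forms the diaphragms of fenestrae and caveolae, had the largest rise of all 37 genes. It was at 9.63 and 9.60 in p53 off and at 11.39 and 11.70 in p53 on, a rise of 1.93 ± 0.12 (3.81-fold; limma adjusted p = 0.000665). Leaving out any 1 array kept the call, with changes from 1.77 to 2.09. Plvap marks capillaries with diaphragmed fenestrae and many tumor vessels, and is low in mature liver sinusoids, whose fenestrae are open.

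Sinusoidal genes split. Of 5 measured genes, 1 rose, 1 fell and 3 were not called. Stab1, which encodes the scavenger receptor stabilin-1 of sinusoidal endothelium and of some macrophages, rose from 9.27 and 9.14 to 10.42 and 10.28, by 1.14 ± 0.09 (2.21-fold; limma adjusted p = 0.00113). Stab2, its paralog with a narrower sinusoidal pattern, was dim on every array, at 6.53 and 6.40 before and 6.66 and 6.88 after. The change of Stab2 was 0.31 (95% interval 0.05 to 0.57; limma adjusted p = 0.0786). Clec4g, a C-type lectin of liver sinusoids, was at 7.78 and 7.80 against 7.77 and 7.83, a change of 0.01 (95% interval -0.17 to 0.20). Gata4, the transcription factor that maintains sinusoidal identity, was at 7.18 and 7.37 against 7.36 and 7.31, a change of 0.06 (95% interval -0.17 to 0.29). Clec4g and Gata4 had overlapping groups and changed sign with quantile normalization and with median centring, and Gata4 and Stab2 were in the lowest 40% of gene means. Clec4g also changed sign without p53 on replicate 2 (-0.021), and Gata4 without p53 off replicate 1 (-0.035). Lyve1, the hyaluronan receptor of sinusoidal and lymphatic endothelium and of some tissue macrophages, was lower in p53 on, at 9.89 and 10.14 against 10.86 and 10.55. It fell by 0.69 ± 0.14 on the log2 scale (1.62-fold, limma adjusted p = 0.0179), opposite in direction to Stab1. A dimmer Lyve1 probe set changed by -0.64 and was not called (adjusted p = 0.0611 in the limma fit over all probe sets). Without p53 off replicate 1, Lyve1 was at -0.54 and lost its call (limma adjusted p = 0.0748, range 0.00477 to 0.0748), and Stab2 was called without p53 on replicate 1 (0.42; 0.0317, range 0.0304 to 0.338) and was at 0.20 without p53 on replicate 2.

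The lymphatic genes gave different results. Prox1, the factor that specifies lymphatic endothelium and is also made by hepatocytes, was dim, at 5.62 and 5.64 in p53 off against 5.42 and 5.47. It was not called (-0.19, 95% interval -0.37 to -0.01, limma adjusted p = 0.115). Dimmer Prox1 probe sets were not called either, and changed the other way, by 0.15 and 0.028. With the mean of its probe sets the Prox1 change was -0.002. Pdpn, which encodes podoplanin of lymphatic endothelium and of many fibroblasts, rose from 9.88 and 9.54 to 10.59 and 10.84, by 1.01 ± 0.15 (2.01-fold), without overlap. Lyve1, given with the sinusoidal genes, fell. The 3 genes of this endothelium therefore showed a rise, a fall and no call.

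Tip cell and apelin genes also went separate ways. Esm1, which encodes endocan, a proteoglycan secreted by tip cells of sprouting vessels and by some tumor cells, was at 9.30 and 9.27 in p53 off and at 6.90 and 7.01 in p53 on. Esm1 fell by 2.33 ± 0.078 on the log2 scale (5.01-fold; limma adjusted p = 0.00028), a change larger in size than any rise among the 37 genes. Aplnr, the apelin receptor of endothelial cells, was at 12.05 and 12.04 against 12.53 and 12.83, a rise of 0.64 ± 0.12. Its ligand gene Apln was at 9.40 and 9.22 against 9.09 and 9.41, with overlapping groups and a change of -0.06 (95% interval -0.39 to 0.27). The change of Apln had the other sign under spike-in scaling, without p53 off replicate 1 (0.029) and without p53 on replicate 1 (0.097). Receptor and ligand therefore gave a call and no call. Esm1 kept its call without any 1 array, with changes from -2.38 to -2.27, whereas that of Aplnr was lost without p53 off replicate 1 (limma adjusted p = 0.0626) or 2 (0.0818; range 0.00243 to 0.0818) and at its probe set without an a, s or x suffix (0.38; 0.0597).

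The second p53 on array had higher values than the first for most of these genes. This held for 31 of the 37 genes (83.8%), with a median difference of 0.216 on the log2 scale, against 60.2% and 0.0366 for all genes. Among 30 other pan-endothelial genes the second array was the higher for 27, with a median difference of 0.168. Among 17 other sinusoidal genes it was the higher for 7, and among 16 macrophage markers for 3. The p53 off arrays differed less for the endothelial genes, with a median difference of -0.0701 (replicate 2 minus replicate 1). Of the 27 called endothelial genes, 15 kept their call when each array was left out and in every other setting that gave them a value, apart from the size threshold: 14 that rose and Esm1. These 14 were Emcn, Cd34, Cd93, Gja4, Eng, Mmrn2, Vwf, Sox17, Fli1, Angpt1, Tek, Plvap, Stab1 and Pdpn. The other 12 lost it without at least 1 array.

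**Figure D3:**
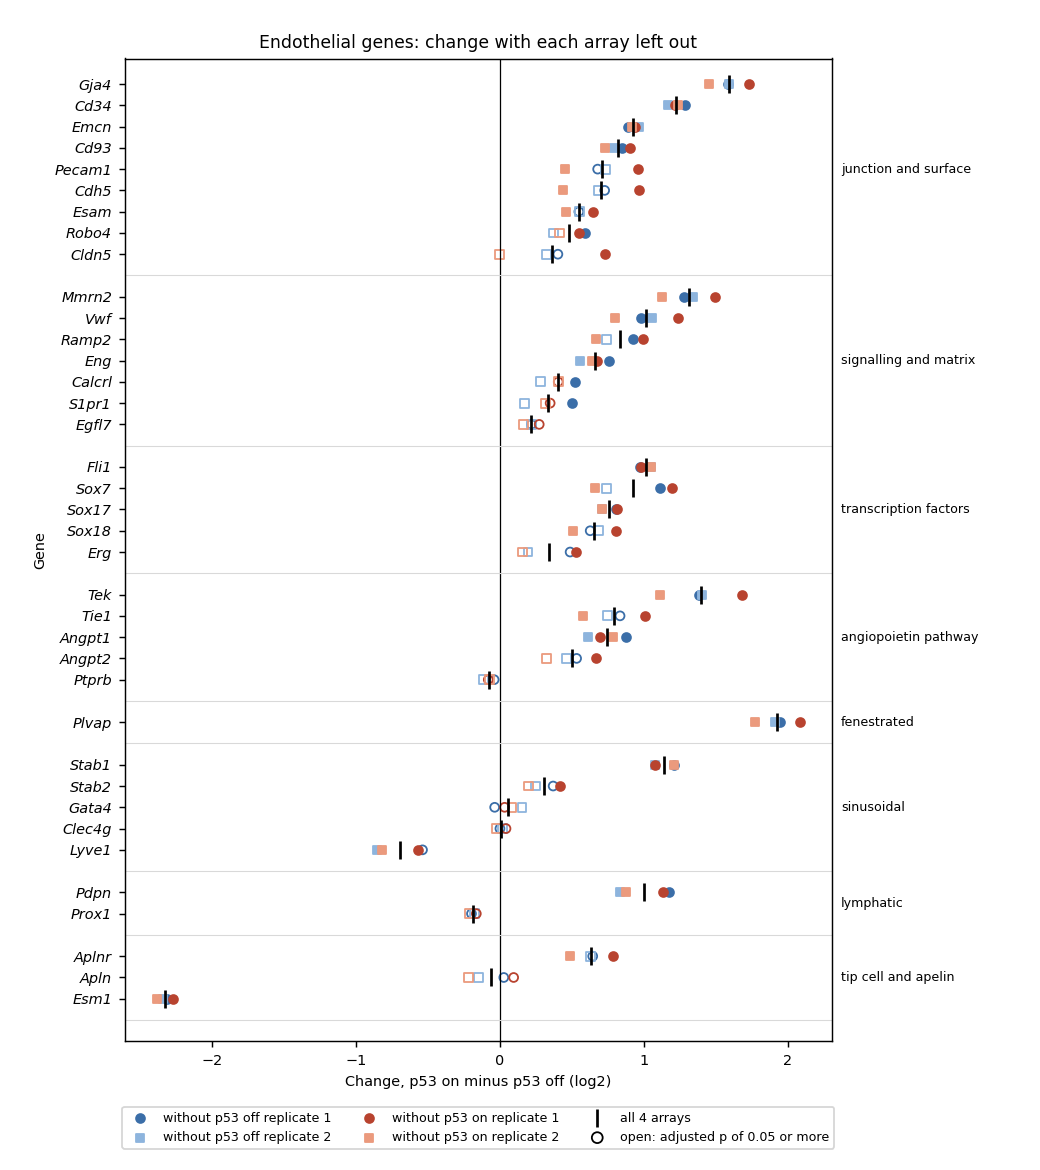
Log2 change (p53 on minus p53 off, horizontal axis) of each measured endothelial gene when each array is left out in turn, with the change over all 4 arrays as a black bar; filled symbols have a limma adjusted p under 0.05 and open ones do not. Without p53 on replicate 2 most rises are smaller, as for Cdh5 at 0.44, and without p53 on replicate 1 they are larger.

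Several genes could be read at more than 1 probe set. Of the 65 probe sets, 33 were called higher and 3 lower, against 11.3% and 11.5% of all 45037 probe sets (22.8% either way). In the 18 genes with several probe sets, no gene had calls in both directions. All 4 probe sets of Mmrn2 rose, by 0.79 to 1.31, as did both of Fli1 and both of Eng. Of the 12 called genes with several probe sets, 3 had every probe set called. Cdh5, Sox7, Sox17, Angpt1 and Angpt2 each had a second, dimmer probe set that was not called. The changes there were 0.01, 0.0038, 0.11, 0.20 and 0.24. Cd93 had another probe set called higher (0.97) and dimmer ones that were not called, with changes of 0.20, 0.09 and -0.12. Of the 28 probe sets not used for the main values, 19 were not called, and 15 of those lay in the lowest 40% of gene means. Egfl7 and Ptprb had no call at their brightest probe set but had one elsewhere: Egfl7 rose at both of its dimmer pair of probe sets (0.45 and 0.34), and Ptprb fell at 1. When a gene's probe sets were averaged, the calls of Cdh5 (0.36; limma adjusted p = 0.0722) and Calcrl (0.19; 0.134) were lost, and the changes became 0.39 for Cd93, 0.47 for Sox7, 0.44 for Sox17 and 0.47 for Angpt1, while Ptprb was called lower (-0.23; 0.0429) and Egfl7 higher (0.32; 0.0466).

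**Figure D4:**
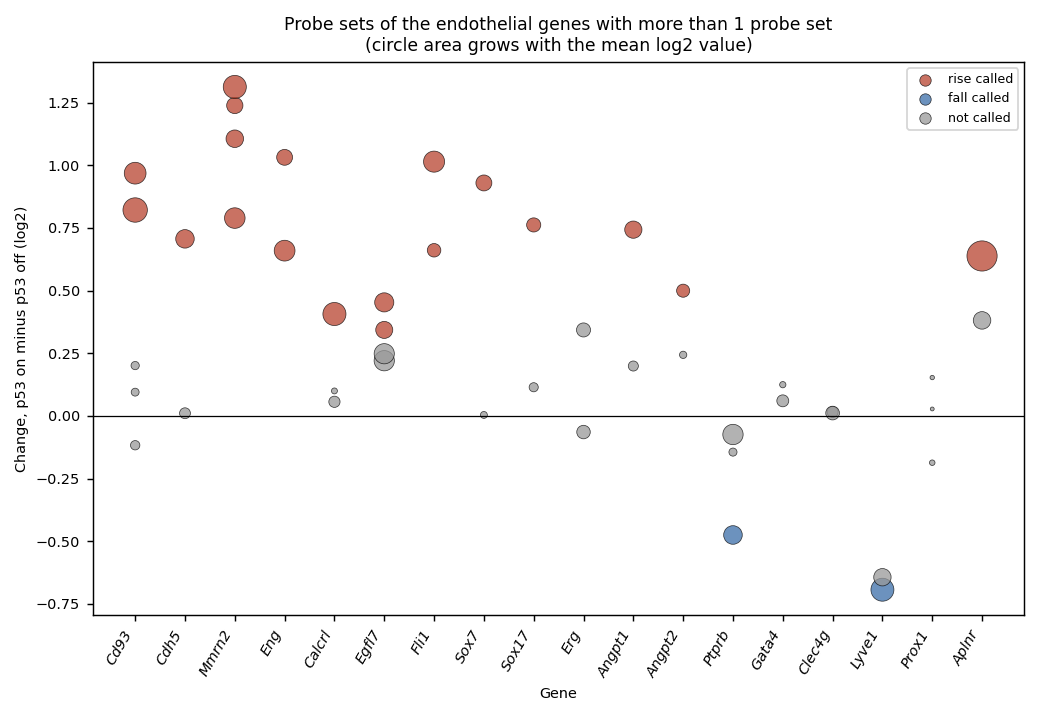
Log2 change (p53 on minus p53 off, vertical axis) of every probe set of the 18 endothelial genes with more than 1; circle area grows with the mean log2 value, red marks a called rise, blue a called fall and grey no call. The 4 probe sets of Mmrn2 all lie between 0.79 and 1.31, while the small grey circles of dim probe sets lie nearer 0.

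Promoter sequence was available for 19 of the 38 genes in a RefSeq table (GRCm38.p6), some with several starts, 24 windows in all. The 250 bases before each start were searched on both strands for AGGAAG, a core bound by ETS factors, ACAAT, a core bound by SOX factors, AGATAA, bound by GATA factors, and TATAAA, the TATA box. The ETS core was present in 54.2% of the 24 windows against 29.5% of all 32851 windows of the same length, and the SOX core in 37.5% against 27.7%. The GATA letters were present in 4.17% against 9.99%, and the TATA box in 12.5% against 12.4%. The windows of the 3 genes with the largest rises among those with a sequence, and of Esm1 with the largest fall, follow, 5′ to 3′ on the strand of the gene, with matches to any of these letters in capitals. No base of these windows lay in more than 1 match.
Gja4 (chr4:127314040-127314289, minus strand): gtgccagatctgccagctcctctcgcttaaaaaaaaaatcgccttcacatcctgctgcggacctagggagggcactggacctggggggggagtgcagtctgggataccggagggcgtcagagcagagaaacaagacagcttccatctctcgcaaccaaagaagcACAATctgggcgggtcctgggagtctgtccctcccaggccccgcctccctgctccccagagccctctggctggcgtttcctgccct
Tek (chr4:94739039-94739288, plus strand): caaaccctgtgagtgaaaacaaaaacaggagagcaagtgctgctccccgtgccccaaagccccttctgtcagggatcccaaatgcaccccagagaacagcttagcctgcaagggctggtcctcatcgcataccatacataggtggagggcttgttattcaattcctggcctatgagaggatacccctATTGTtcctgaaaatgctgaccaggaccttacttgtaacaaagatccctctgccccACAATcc
Cd34 (chr1:194938571-194938820, plus strand): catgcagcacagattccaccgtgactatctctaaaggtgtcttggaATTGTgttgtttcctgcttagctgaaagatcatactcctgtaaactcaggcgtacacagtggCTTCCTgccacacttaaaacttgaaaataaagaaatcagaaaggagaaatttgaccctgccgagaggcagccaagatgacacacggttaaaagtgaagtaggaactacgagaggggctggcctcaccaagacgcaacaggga
Esm1 (chr13:113209409-113209658, plus strand): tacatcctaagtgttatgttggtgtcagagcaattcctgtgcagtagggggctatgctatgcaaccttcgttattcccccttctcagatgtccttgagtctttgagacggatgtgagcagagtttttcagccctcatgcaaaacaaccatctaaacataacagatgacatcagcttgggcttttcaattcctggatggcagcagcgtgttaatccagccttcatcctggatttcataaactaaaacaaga
Gja4 had 1 ACAAT match, beginning 86 bases before the start, and Tek had 2, beginning 63 and 7 bases before it. Cd34 had 1 AGGAAG match and 1 ACAAT match, both on the opposite strand. The window of Esm1 held none of the 4 motifs in these letters. A match describes letters and is not a site shown to be bound.

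Other vascular genes, listed by name beside the 38 and likewise with earlier results known, moved both ways. Of 69 measured, 26 rose and 8 fell, and 17 were called higher and 5 lower without p53 off replicate 2. Among 30 other pan-endothelial genes 14 rose and 3 fell, with a median of 0.45 (7 and 1 without p53 off replicate 2). Nostrin, which regulates endothelial nitric oxide synthase, rose by 1.43 ± 0.076, Tmem204, an endothelial junction protein gene, by 1.40 ± 0.11 and Clec14a, a partner of MMRN2, by 1.25 ± 0.13. Podxl, a sialomucin that endothelial and many tumor cells make, fell by 1.28 ± 0.11 (-0.69 with the mean of its probe sets). Of 17 other sinusoidal genes 6 rose and 2 fell. Their median change was 0.24, and ran from 0.061 without p53 on replicate 1 to 0.39 without p53 on replicate 2. The endothelial receptor gene Gpr182 rose by 1.59 ± 0.17, the transcription factor gene Maf by 1.31 ± 0.19 and Kit by 1.29 ± 0.29. Ntn4, a netrin, fell by 1.30 ± 0.12 (-0.69 with the mean of its probe sets). Maf is also made by macrophages and Kit by mast cells. The call of Kit was lost without p53 off replicate 2 (limma adjusted p = 0.135, range 0.00202 to 0.135), and its change was 0.64 with the mean of its probe sets.

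Of 8 other lymphatic genes 2 rose and 1 fell (4 and 1 without p53 off replicate 1 or p53 on replicate 1). Nr2f2, a factor of venous and lymphatic endothelium that stromal cells share, rose by 0.87 ± 0.081, and Lcp2, a signalling adaptor of blood cells needed for the separation of lymph from blood vessels, by 1.30 ± 0.095. The growth factor gene Vegfc, which drives lymphatic growth, fell by 1.27 ± 0.079. Of 14 genes of arteries, veins and vessel maturation 4 rose and 2 fell, with a median of 0.0693 that ran from 0.0338 without p53 off replicate 2 to 0.105 without p53 off replicate 1. Sema3g, an arterial semaphorin, rose by 0.81 ± 0.08 and Nrp1, a coreceptor for VEGF and semaphorins, by 0.72 ± 0.091. The angiogenic factor gene Vegfa fell by 1.07 ± 0.17 and Hey1, a Notch target, by 0.76 ± 0.09. The call of Vegfa was lost without p53 off replicate 2 (limma adjusted p = 0.0568, range 0.00109 to 0.0568).

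**Figure D5:**
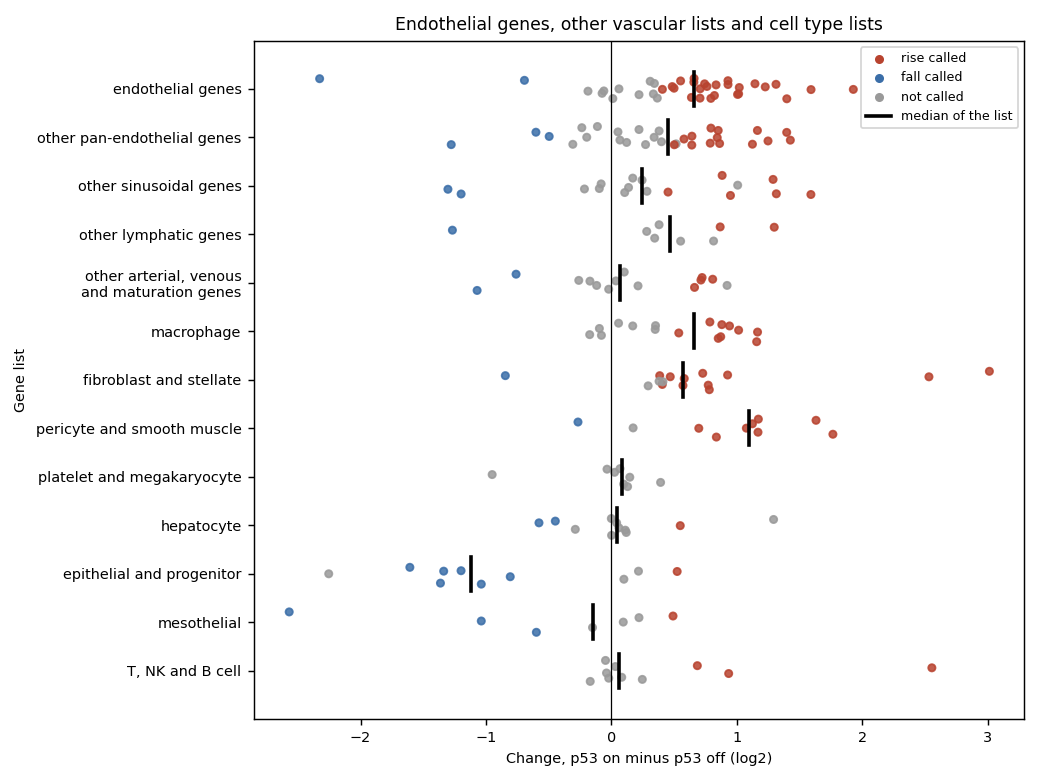
Log2 change (p53 on minus p53 off, horizontal axis) of each gene in the endothelial set, the other vascular lists and the cell type lists; red marks a called rise, blue a called fall, grey no call, and the black bar is the median of a list. Medians of the endothelial, macrophage, fibroblast and pericyte lists lie between 0.57 and 1.10, and that of the epithelial list at -1.12.

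Several of the 38 genes are shared with other cell types, whose markers moved in the same samples. Of 16 macrophage markers 9 rose and none fell (median 0.661), of 15 fibroblast and stellate cell markers 11 rose and 1 fell (median 0.57; 6 and 1 without p53 off replicate 2), and of 10 pericyte and smooth muscle markers 8 rose and 1 fell (median 1.10). The log2 of the summed linear values ran from 14.67 to 14.83 in p53 off and from 15.48 to 15.72 in p53 on for macrophages. The same sum ran from 16.002 to 16.22 and from 16.87 to 16.88 for fibroblasts, and from 14.39 to 14.50 and from 15.50 to 15.58 for pericytes. These sums bear on Stab1, Cd93, Fli1 and Pecam1, which myeloid cells can express, on Cd34 and Pdpn, which fibroblasts can, and on Angpt1, which pericytes and stellate cells make. The part of those cells in the results was not tested. The macrophage markers Marco, Clec4f, Timd4 and Itgam, of which Clec4f and Timd4 mark resident liver macrophages, lay in the lowest 40% of gene means. No platelet or megakaryocyte marker of 8 was called by limma, and 0 of them had an unadjusted p under 0.05. The fit called 1 of them higher without p53 off replicate 1, and without p53 off replicate 2 it called 1 lower. Their summed level ran from 11.08 to 11.58 in p53 off and from 11.46 to 11.56 in p53 on, beside the rises of Vwf and Pecam1. Epithelial and progenitor markers fell in 6 of 10 cases and rose in 1 (median -1.12). Their sum ran from 15.30 to 15.50 in p53 off and from 14.07 to 14.15 in p53 on. This sum bears on the falls of Esm1 and Podxl, which tumor cells can also make, and the part of those cells was not tested. Mesothelial markers rose in 1 of 7 cases and fell in 3, hepatocyte markers rose in 1 of 11 and fell in 2, and T, NK and B cell markers rose in 3 of 10 and fell in none. Without p53 off replicate 2 the rises in these lists were 0, 0 and 1 and the falls 3, 1 and 0.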

How the data were processed

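Total RNA of 4 tumor samples was hybridized to 1 Affymetrix mouse expression array each. The authors deposited 1 log2 value for each probe set and array, computed with RMA per the submitters' processing notes; limma 3.14.4 is named there too. The build they used is not given in the sources used here. This method corrects background, equalises array distributions and summarises probes, and marks no probe set as undetected. Of 45101 probe sets, 64 controls were left out; 34945 had 1 gene symbol, 932 several and 9160 none. A gene was represented by its brightest probe set of exactly 1 gene (18193 genes, no filter). Genes were fitted with limma 3.58.1 (R 4.3.3; lmFit, eBayes) as p53 on minus p53 off, with 2 residual and 5.47 moderated degrees of freedom and Benjamini-Hochberg adjustment over all genes, and all 45037 probe sets were fitted likewise. A permutation test of 2 against 2 arrays cannot reach a p of 0.05. The fit was tested before use on simulated data with 50 changed genes at each size. It recovered 10% of changes of 0.5 on the log2 scale, 68% of 1, 92% of 2 and 100% of 4. In the simulated data 136 genes were called, against 5223 in the real data. The adjustment was therefore stricter in the simulation, and these recovery rates do not carry over to the real fit. All 38 genes are named; of each other vascular list, up to 4 called genes with the largest change are named. The members and lists were chosen with earlier results of these data known. The genes targeted by the hairpin and driving the tumor are not reported here. Alternatives were quantile normalization, median centring, spike-in scaling, a filter on dim genes, other probe set choices, array weights, trended and robust variances, a minimum change, blocks and leaving out arrays. Figures were drawn with matplotlib 3.10.9.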

Additional observations from a re-analysis of the deposited data

How the results depend on the processing

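With the replicate number as a block, 4323 genes and 23 endothelial genes were called, against 5223 and 27 without it; no call count moved by over 1.5 times. Under the block the limma adjusted p of Robo4 was 0.0534, of Calcrl 0.0534, of Sox7 0.0594, of Angpt2 0.0616 and of Kit 0.0573, all above 0.05. The labels do not say what a number shares. Deviations of same-numbered arrays correlated at -0.154 across genes, and with crossed numbers, an alternative added after seeing the data, 3954 genes and 23 endothelial genes were called. Requiring a log2 change of at least 1 left 960 genes, 10 endothelial genes (9 higher, 1 lower) and 13 of their probe sets, against 36 probe sets. Leaving out 1 array gave 2228 to 5055 called genes, 16 to 29 endothelial genes (14 to 27 higher, 1 to 2 lower), 21 to 39 of their probe sets and a median change of 0.486 to 0.79. Counts were lowest without p53 off replicate 2, except that of endothelial genes called lower, which was lowest without p53 off replicate 1 (3259 called genes, 20 of them endothelial). With either left out, the lone p53 off array is assumed to vary like the p53 on pair. No called endothelial gene changed sign in any setting; Apln, Clec4g, Cldn5, Gata4 and Ptprb, all uncalled, did. Under the other settings the endothelial count stayed between 20 and 30, the lowest with probe sets without an a, s or x suffix, which Pecam1, Emcn, Stab1, Eng, Egfl7 and Sox17 lack. Stab2, Tie1, Vwf, Gata4 and Prox1 lay in the lowest 40% of gene means; signal over background was not measured here.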
